A study of Mus musculus with 65 samples.

Results

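The sites described here are 1657 places in the mouse genome where a CTCF peak was called in stem and early progenitor cells of the bone marrow and in megakaryocyte precursors, but in neither erythroblasts nor maturing megakaryocytes. They were chosen by merging the peaks of 11 CTCF lists from primary cells wherever peaks shared at least 1 bp, which gave 63339 merged sites. A site was kept where both LSK lists and the CFUMk list had a peak, which 17657 sites did, and where none of the 2 ERY and 2 iMk lists had one. The 1657 sites are 9.38% of those 17657 and 2.62% of all merged sites. The peak calls in these 7 lists therefore chose the sites, and values from them are a description. A site without a call is not shown to be unbound: the lists give no read depth, and the ERY lists are the shortest of the 11, with 8284 and 6629 peaks against 36481 in CFUMk. For this reason the sites are called uncalled in mature cells below, not lost.

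The study mapped CTCF by ChIP-seq, in which chromatin bound by a protein is pulled down with an antibody and sequenced, in rare blood cells and in an erythroid cell line. All primary cells came from the bone marrow of male C57BL/6 mice of 5 to 8 weeks and were fixed with 0.4% formaldehyde. All were sorted without the lymphoid and granulocyte markers CD4, CD8, IL7Ra, CD11b, Ly6g and CD45R. LSK cells (2 libraries), which include the stem cells, were Ter119-, cKit+ and Sca1+. CMP, GMP and MEP, the progenitors of all myeloid cells, of granulocytes and monocytes, and of megakaryocytes and red cells (1 library each), were Ter119-, cKit+ and Sca1-, and were divided by CD34 and CD16/32 (CMP CD34+ CD16/32-, GMP positive for both, MEP negative for both). CFUMk (1 library) and iMk (2 libraries) were Ter119-, Sca1-, CD41+ and CD61+, and differed in cKit, which CFUMk carried and iMk lacked. CFUE (1 library) and ERY (2 libraries) were Ter119+ and CD44+, CFUE with high and ERY with low forward scatter. G1E-ER4+E2 cells are an erythroid line derived from embryonic stem cells, without GATA1 and with an estradiol-dependent GATA1 fusion, taken after 24 hours of estradiol. It stands for red cell precursors only as far as 1 line can. The CMP and GMP libraries were assessed by the submitters as Low pass and the other primary libraries as Pass. Of the CTCF and TAL1 libraries of the line, the 14 and 10 assessed as Pass were used.

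CTCF is a zinc finger protein that binds a long, well defined DNA sequence. With the cohesin complex it anchors chromatin loops and marks the borders between neighbouring domains, and it can keep an enhancer from acting on the wrong promoter. Most of its sites are shared between cell types, and a smaller share differs, often where the binding sequence is weaker or its CG dinucleotides are methylated.

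The sequences at the 9 sites of the highest rank in LSK, by the mean percentile of their peaks over both LSK lists, show the kind of CTCF match these sites hold. A matrix of 19 bp was learned from the strongest CTCF sites of G1E-ER4+E2 cells with the 1657 sites left out, and its most frequent bases read GCCACCAGGGGGCGCTAGA. The best match of each site is in capitals, on the strand of the match, in GRCm38 (mm10), with flanks of 20 bases, or 5 bases at transcript starts.

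6030407O03Rik: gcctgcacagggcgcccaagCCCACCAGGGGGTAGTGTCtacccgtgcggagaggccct
Kif20b: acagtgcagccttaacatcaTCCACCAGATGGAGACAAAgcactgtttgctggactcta
Scnn1g: ctctgGACAGCAGATGGCACTGCGgggtc
Sh3gl3: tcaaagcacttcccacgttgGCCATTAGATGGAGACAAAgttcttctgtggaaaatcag
1810046K07Rik: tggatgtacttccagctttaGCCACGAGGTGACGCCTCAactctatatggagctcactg
Itga1: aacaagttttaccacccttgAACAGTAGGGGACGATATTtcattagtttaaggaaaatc
Sbk2: ctgccCCCAATGGGGGGCAGAAGGggcgg
Gm4131: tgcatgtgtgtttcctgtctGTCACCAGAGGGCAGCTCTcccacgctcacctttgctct
Eya4: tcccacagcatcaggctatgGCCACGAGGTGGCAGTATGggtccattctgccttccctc

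In order, these matches lie at chr1:73862971-73862989 (minus strand), chr19:34993335-34993353 (plus), chr7:121734296-121734314 (plus), chr7:82273097-82273115 (minus), chr9:51335469-51335487 (plus), chr13:115451443-115451461 (plus), chr7:4964468-4964486 (minus), chr14:62492623-62492641 (plus) and chr10:23116967-23116985 (plus). They share 11 to 13 of the 19 most frequent bases of the matrix. Their scores ran from 8.90 bits at the Sbk2 site to 19.6 bits at the Eya4 site. Of the 9 matches, 5 hold no CG (6030407O03Rik, Kif20b, Sh3gl3, Sbk2 and Gm4131), and that at 1810046K07Rik holds 2.

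Among all 1657 sites the best score had a median of 15.6 bits (quartiles 12.8 and 18.3). It was 17.7 bits at the 6869 sites that were also called in both iMk lists and in no ERY list, and 18.9 bits at the 4377 sites called in all ERY and iMk lists, named retained sites here. A match at a p of 0.0001 per position was present in 93.2% of the 1657 sites, 97.4% of the iMk sites and 98.0% of retained sites. Windows of the same lengths 10 kb away held one in 22.8%, 32.3% and 43.8%, so this background was higher beside the wider retained sites. At the stricter p of 1e-05 the shares were 73.9%, 86.0% and 90.8%, against 8.09%, 10.9% and 16.1% in the windows. The order of the shares depended on the window. In the middle 200 bp of every site a match at 0.0001 was present in 85.8% of the 1657 sites, 82.4% of iMk sites and 75.1% of retained sites, and one at 1e-05 in 68.0%, 71.3% and 66.8%. The median best score in that window was 15.23, 16.53 and 16.98 bits, which kept its order. Nearly all sites uncalled in mature cells thus held a CTCF match, with a lower median score in either window. The training sites include 35.1% of retained sites but only 2.23% of the iMk sites, so the second comparison depends less on how the matrix was made. The lower score was also seen within broad groups of LSK rank, which do not hold peak strength equal. In CFUMk the median percentile of the peaks was 42.5 at the 1657 sites and 72.0 at iMk sites. Within the 4 groups of LSK rank explained below, from weakest to strongest, the medians were 15.7, 15.5, 15.6 and 14.1 bits at sites uncalled in mature cells, against 17.7, 17.7, 17.9 and 17.5 bits at iMk sites.

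A CG dinucleotide in the best match, where methylation can weaken CTCF binding, was present in 35.0% of the 1545 sites with a match. It was present in 45.3% of matches at iMk sites and 54.7% at retained sites. The gap to retained sites in matching the matrix was widest at 2 positions. At position 14, counted from its 5′ end, 44.7% of the matches of the 1657 sites and 57.9% of those at retained sites had the most frequent base. At position 9 these shares were 47.2% and 61.6%. The matrix was learned in part from retained sites, so their match to its bases is partly built in. At iMk sites, few of which were used for training, the shares were 49.9% at position 14 and 52.45% at position 9. The gap to iMk sites was about as wide at position 13, with 79.1% in the 1657 sites and 84.35% in iMk sites. Positions 8 and 11 hardly varied, with 99.7% and 98.1% in the 1657 sites against 99.8% and 99.4% in retained sites. Sites are not replicates, so these sequence differences carry no test.

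**Figure D1:**
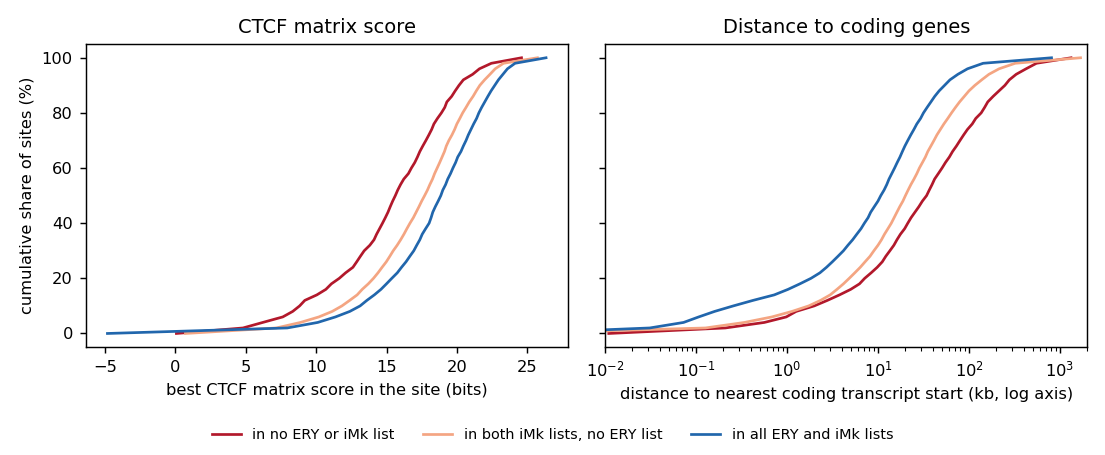
Cumulative share of sites (vertical axis, %) by the best CTCF matrix score in bits (left) and by the distance in kb to the nearest coding transcript start on a log axis (right), for the 1657 sites in no ERY or iMk list (red), the 6869 in both iMk lists and no ERY list (orange) and the 4377 in all ERY and iMk lists (blue). The red curve lies at the lowest scores, with a median of 15.6 bits, and at the longest distances, with a median of 34154 bp.

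Short motifs of other factors differed less between the sets. In the middle 300 bp and on both strands, AGATAA, a sequence of the GATA factors, was found in 14.3% of the 1657 sites, 12.4% of all 17657 sites and 10.9% of retained sites. TGTGGT, a sequence of RUNX factors, was found in 23.5%, 22.5% and 20.7%. GGAAGT, of ETS factors, was found in 16.7%, 18.3% and 19.5%, CAGCTG, an E-box, in 15.5%, 15.9% and 16.98%, and TGACTCA, of AP-1, in 4.71%, 4.51% and 4.30%. A match is not a bound site.

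In the lists that chose them, the sites were among the weaker peaks. The percentile of a peak within its list by −log10 p, where 100 is the strongest, had a median of 21.8 in LSK list 1, 44.4 in LSK list 2 and 42.5 in CFUMk. Over all 17657 sites called in those lists the medians were 52.8, 67.7 and 75.3. When the 17657 sites were divided into 4 equal groups by their mean percentile in both LSK lists, 1075 of the 1657 sites fell in the weakest group, 424 in the second, 137 in the third and 21 in the strongest. The strongest group still held sites with high values. At the first of the sequences shown, an exon of the long noncoding gene 6030407O03Rik at chr1:73862521-73863444, the −log10 p was 26.7 and 57.0 in LSK and 35.9 in CFUMk. At the site 247 bp from the start of Scnn1g, a sodium channel subunit gene, at chr7:121733726-121734737, it was 28.5, 41.6 and 63.8.

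**Figure D2:**
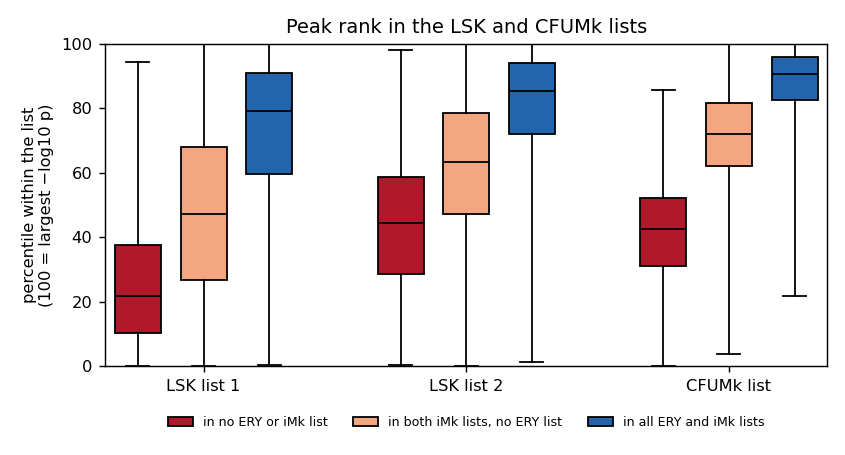
Percentile of the peaks within LSK list 1, LSK list 2 and the CFUMk list (vertical axis, 100 is the largest −log10 p) for sites in no ERY or iMk list (red), in both iMk lists and no ERY list (orange) and in all ERY and iMk lists (blue). Boxes give the quartiles with the median, and whiskers the lowest and highest site, so the red medians of 21.8, 44.4 and 42.5 lie under the others in each list.

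The edge of the choice was not sharp. Of the 1657 sites, 393 had a −log10 p under 6 in LSK list 1, close to the floor of 5 that all lists have, and 426 reached 10. On the other side, 1556 sites failed the choice through 1 mature list only, 680 through iMk list 1, 849 through iMk list 2 and 27 through an ERY list. Those in iMk list 1 alone had a median −log10 p of 7.48 there, and those in iMk list 2 alone one of 7.31. A further 49 of the 1657 sites had an ERY or iMk peak within 1 kb that did not overlap. In LSK list 2, whose false discovery rates run high, 297 of the 1657 peaks had a rate of at most 0.05, whereas all had in LSK list 1 and CFUMk. The number of sites was 1036 where every list was held to a −log10 p of at least 10 and 193 where every list was cut to its 6629 strongest peaks. Without LSK list 1 it was 5206, and without iMk list 2 it was 2506.

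The choice was set mostly by the megakaryocyte side. Of the 17657 sites, 10055 (56.9%) were in no ERY list but only 1690 (9.57%) in no iMk list. Of those 1690, 98.0% were also in no ERY list. Only 6 sites were called in both ERY lists and in no iMk list. Sites missing from iMk but kept in erythroblasts were therefore almost absent among the calls.

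The 4 progenitor lists that took no part in the choice called the sites at very different shares. GMP called 979 of the 1657 sites (59.1%, 95% Wilson interval 56.7 to 61.4), against a background of 89.3% of all 17657 sites. CMP called 692 (41.8%, 39.4 to 44.1), against 74.1%. MEP called 431 (26.0%, 24.0 to 28.2), against 73.0%. CFUE, the stage before ERY, called 38 (2.29%, 1.68 to 3.13), against 38.2% of all sites and 15.9% of the iMk sites. The intervals cover counting error only. The order of the shares is that of the list lengths, with 34416 peaks in GMP, 26316 in CMP, 15002 in MEP and 11990 in CFUE, and it did not hold at equal lengths. With CMP, GMP and MEP cut to the 11990 strongest peaks each and the 1657 sites kept, a comparison added after the data were seen, CMP called 18.7%, GMP 15.7% and MEP 14.2% of them, against 2.29% in CFUE. Of the iMk sites the lists so cut called 49.0%, 52.9% and 55.8%, against 15.9% in CFUE. In the Low pass lists a false discovery rate of at most 0.05 was reached by 8.88% of the CMP and 12.8% of the GMP peaks. Each cell type has 1 library, so there is no replicate check and no test between cell types. CMP and MEP called nearly the same share of all 17657 sites but differed at the sites uncalled in mature cells. At the iMk sites CMP and MEP were again close, with 71.9% and 70.5%. With all 11 lists cut to their 6629 strongest peaks, which also changed the sites, 193 met the choice. CMP called 64.3%, GMP 65.8%, MEP 65.3% and CFUE 11.9% of these, against 76.6%, 80.6%, 85.7% and 64.0% of all sites so selected.

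The share called by each list was higher the stronger a site was in LSK, apart from CFUE. In MEP the shares from the weakest to the strongest group were 18.9%, 34.0%, 49.6% and 76.2%. In CFUE they were 2.14%, 1.89%, 5.11% and 0%. None of the 21 strongest sites was called in CFUE, where a count of 0 of 21 has a Wilson upper limit of 15.5%, while 24.2% of iMk sites and 92.2% of retained sites of that group were. By contrast CMP called 19 and GMP all 21 of these strongest sites. In every group and list but GMP in the strongest group, the share was lower than at retained sites.

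**Figure D3:**
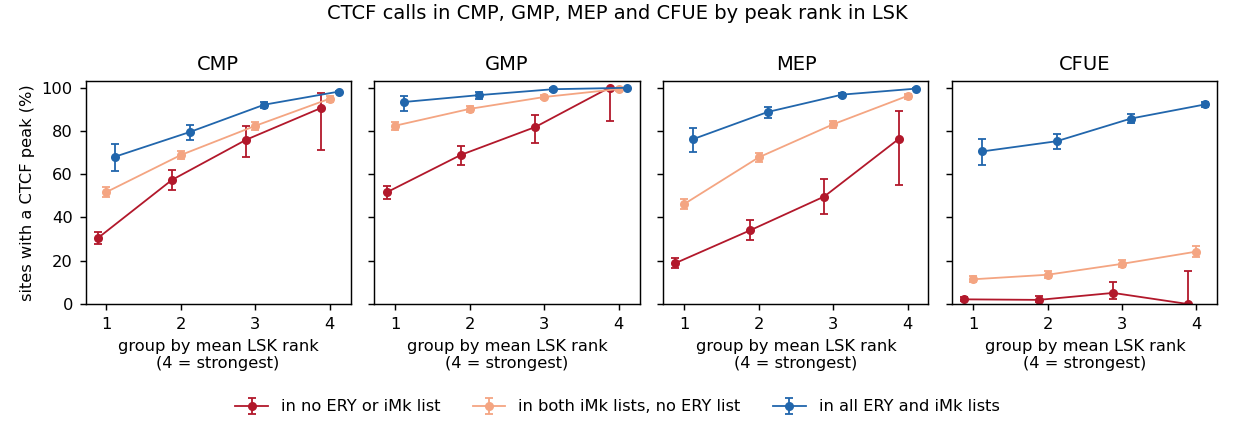
Share of sites with a CTCF peak in CMP, GMP, MEP and CFUE (vertical axis, %) by group of the mean LSK rank (horizontal axis, 4 is the strongest), for sites in no ERY or iMk list (red), in both iMk lists and no ERY list (orange) and in all ERY and iMk lists (blue), with 95% Wilson intervals as bars. The red points climb with LSK rank in CMP, GMP and MEP, from 18.9% to 76.2% in MEP, and stay between 0% and 5.11% in CFUE.

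By pattern, 437 of the 1657 sites (26.4%) were called in none of the 4 lists, 531 in 1, 467 in 2, 213 in 3 and 9 in all 4. The shares of the 1657 sites in 1, 2 and 3 lists were 32.05%, 28.2% and 12.85%. Over all 17657 sites 5.10% were in none, 11.4% in 1, 19.2% in 2, 32.4% in 3 and 31.9% in all 4. GMP alone, the longest of the 4 lists, was the most frequent pattern with a call (347 sites), followed by CMP with GMP (290) and CMP with GMP and MEP (194). In that order these patterns took 20.9%, 17.5% and 11.7% of the 1657 sites, against 8.00%, 9.10% and 27.5% of all 17657. The sites in none of the 4 with the highest LSK rank lay near Cobl, Car8, Icos, Slit2 and 4930550L24Rik, all between genes. At the Cobl site, at chr11:12559029-12559872 and 94491 bp from the gene start, the −log10 p was 17.5 and 21.8 in LSK and 17.4 in CFUMk, with a CTCF match of 18.6 bits. Of the 5 highest in LSK among the sites in all 4 lists, the first lies near Gm3383 in a stretch of near-identical gene copies on chromosome 14, and 1 is in the promoter of Fads2, a fatty acid desaturase. At Fads2, chr19:10100380-10101818, the −log10 p was 13.1 and 25.04 in LSK, 9.78 in CMP, 33.7 in GMP, 5.89 in MEP, 46.8 in CFUMk and 8.28 in CFUE. The others lie in AC161438.1 and Slc12a9 and near Asb17.

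The G1E-ER4+E2 libraries offered a separate look, since the choice did not use them. The 14 lists held 10655 to 21986 peaks. The share of the 1657 sites called in them ran from 9.60% to 43.7% with a median of 15.1%, and that of retained sites from 80.3% to 95.9% with a median of 89.9%. These ranges did not overlap, and the highest share of the 1657 sites came from the longest list. Of all merged sites the libraries called 16.5% to 33.1%, which lies within the range of the 1657 sites. The 1657 sites had the lower share in most libraries. They had the higher one in the longest list (43.7% against 33.1%) and in the list of 17510 peaks (28.1% against 27.2%). Of all sites called in both LSK lists and CFUMk the libraries called 50.7% to 81.9%. The means of the 1657 sites and of retained sites were 17.9% ± 9.06 (SD, n = 14 libraries) and 89.5% ± 4.09, a difference of -71.6 percentage points ± 6.53 (SD). The sites were called less often than retained sites in 14 of 14 libraries (exact two-sided sign-flip permutation test, p = 0.000122, the smallest this design allows, Benjamini-Hochberg adjusted p = 0.000244 over 2 tests). Retained sites were chosen for their calls in ERY, cells of the same lineage as this line. A closer comparison is with the iMk sites, which were likewise in no ERY list. These were called at 56.3% ± 11.2, and the difference was -38.4 points ± 4.11, again in 14 of 14 libraries (exact sign-flip permutation test, p = 0.000122). This comparison was added after the data were seen. Within groups of LSK rank, the difference from iMk sites was -29.0, -37.1, -41.6 and -46.1 points from the weakest to the strongest. All these libraries come from 1 line, and for part of them the study varied cell number and sonication on purpose. They also differ in fragment length. Per the study's methods the line was fixed for less time than the primary cells, but its earlier libraries included other fixation methods. Whether all are separate preparations is not stated, so the p-values measure only the spread between libraries of this line.

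**Figure D4:**
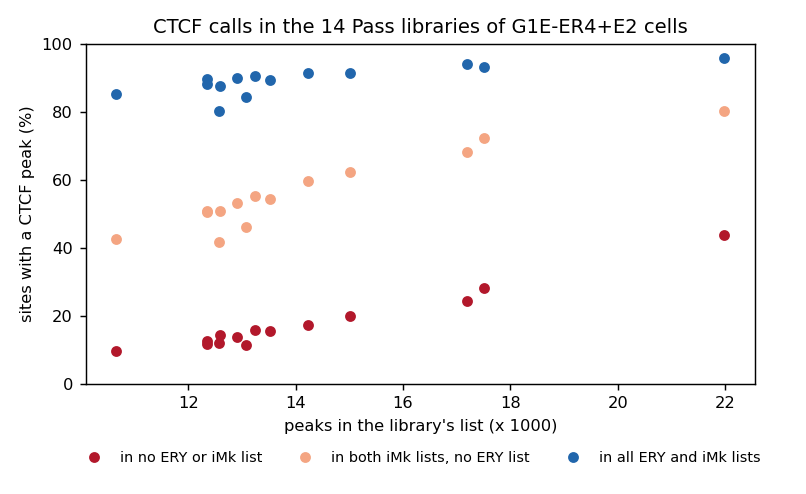
Share of sites with a CTCF peak (vertical axis, %) in each of the 14 Pass libraries of G1E-ER4+E2 cells against the number of peaks in the library's list (horizontal axis, x 1000), for sites in no ERY or iMk list (red), in both iMk lists and no ERY list (orange) and in all ERY and iMk lists (blue). Every library has the order blue, orange, red, and red runs from 9.60% to 43.7%, with the highest value in the list of 21986 peaks.

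Site by site, 834 of the 1657 sites (50.3%) were called in none of the 14 libraries, against 15.4% of all 17657 sites. Calls in at least 1 library were found at 823 sites (49.7%, against a background of 84.6%), in at least 7 at 269 sites (16.2%, against 66.5%) and in all 14 at 19 sites (1.15%, against 31.1%). Where the line's lists did hold a peak, it was weak: its median percentile ran from 21.5 to 35.1 across libraries, against 71.9 to 85.1 at retained sites. The 5 sites with the highest LSK rank among those called in all 14 libraries were near Zpld1, in Grm8, a glutamate receptor gene, at the start of Fads2, 200 bp from the start of Slitrk5, and in Il17b. The 19 sites had a median CTCF score of 17.5 bits, and 63.2% lay over 100 kb from a coding transcript start. The 834 sites called in no library had a median of 15.0 bits, and 25.9% lay that far out. At sites called in 1 to 6 and in 7 to 13 libraries the medians were 16.5 and 16.7 bits, and 23.3% and 25.2% lay that far out. Apart from the 19 sites, the share of distant sites thus did not rise with the number of libraries.

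TAL1, a factor that red cell precursors need, was mapped in the same line and did not enter the choice. Its peaks overlapped between 0.302% and 0.845% of the 1657 sites in the 10 Pass libraries, with a median of 0.362%, and between 1.42% and 4.52% of retained sites, with a median of 2.09%. The ranges did not overlap, and the difference was -2.01 points ± 0.836 (SD, n = 10 libraries), lower in 10 of 10 (exact two-sided sign-flip permutation test, p = 0.00195, the smallest this design allows, and adjusted p = 0.00195). Against iMk sites, at 0.598% ± 0.371, the difference was -0.122 points ± 0.180 and lower in 6 of 10 libraries (exact sign-flip permutation test, unadjusted p = 0.0469), in a comparison likewise added after the data were seen. In the third group of LSK rank the share of the 1657 sites was 0.371 points higher, on 1 of 137 sites. Of the 10 libraries, 1 has an antibody label that names CTCF, and without it the difference from retained sites was -2.03 points (exact permutation p = 0.00391, the smallest for the others). Of all merged sites the TAL1 peaks overlapped 0.439% to 1.43%, and of all sites called in both LSK lists and CFUMk 0.606% to 2.19%. Both ranges overlap that of the 1657 sites, which had the lower share in each library. Few sites stand behind the values of the 1657 sites: 17 of the 1657 (1.03%) had a TAL1 peak in any library, against a background of 2.51%. The sites with a TAL1 peak in all 10 libraries were in a UTR exon of Usp39, in an intron of Ldb1, near 1700029F12Rik and near Fbxo34. They were named after their values were seen, apart from Ldb1. Ldb1 encodes the adaptor that joins TAL1 complexes into enhancer loops. Its site, at chr19:46036269-46037168, had a −log10 p of only 5.66 in LSK list 1 and 5.18 in GMP, no peak in CMP, MEP or CFUE, and a CTCF peak in 9 of 14 G1E-ER4+E2 libraries.

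The sites lay farther from genes than other CTCF sites. By their centre, 168 of the 1657 (10.1%) were within 1000 bp of a transcript start, 713 (43.0%) in introns, 707 (42.7%) between genes, 22 in UTR exons and 47 in other exons. Promoters took 13.5% of all 17657 sites, 11.4% of iMk sites and 20.04% of retained sites. The distance to the nearest coding transcript start had a median of 34154 bp, against 19997 bp at iMk sites and 10717 bp at retained sites. Over 100 kb from any coding start lay 25.3% of the 1657 sites, 12% of iMk sites and 3.68% of retained sites. This held in every group of LSK rank, with 24.1%, 26.9%, 31.4% and 19.05% of the 1657 sites and 10.1%, 10.7%, 15.2% and 12.1% of iMk sites. A median of 7 coding genes started within 500 kb, against 11 and 17. The nearest site called in all 11 lists was a median of 415726 bp away, against 188743 and 62835 bp. The G+C content had a median of 44.9%, against 46.2% and 49.7%, and 4.16% of the sites were mostly repeats, against 5.20% and 4.02%. The merged sites were also narrower, with a median of 814 bp against 932 and 1033 bp. A merged site spans all peaks joined in it, and by the choice the 1657 sites hold no ERY or iMk peak. Their width therefore depends in part on the choice.

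Promoters took a larger share of the sites with a higher LSK rank, few as those were. They made up 8.74% of the sites in the weakest group, 11.1% and 15.3% in the next, and 28.6% of the 21 in the strongest. At retained sites the share was also larger with rank, at 10.5%, 17.8%, 19.9% and 21.4%, and at iMk sites it was 10.8%, 11.7%, 10.8% and 13.3%. Among the coding promoters with the highest LSK rank were those of Scnn1g, Sbk2, a kinase gene, Ube2ql1 and Gm3739. At Ube2ql1, chr13:69739552-69740472 and 123 bp from the start, the −log10 p was 21.9 and 43.7 in LSK, 37.4 in CMP, 26.8 in GMP and 8.08 in MEP, with no call in CFUE or in any of the 14 line libraries. The choice itself set the calls in LSK and CFUMk and their absence in ERY and iMk. In the lists that took no part in it, the Ube2ql1 promoter was called in CMP, GMP and MEP only. Sbk2 and Scnn1g had the same calls in primary cells, and were called in 1 and 3 of the 14 line libraries.

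Of the 7 gene lists, that of stem and progenitor genes held the most of these sites. In or within 10 kb of its 20 genes lay 24 of the 17657 sites, and 7 of these 24 (29.2%) were uncalled in mature cells, against 9.38% overall. They lay at Mecom (3 sites), Mycn (2), Kit and Hlf. Lymphoid genes had 3 of 22 (2 in Pax5 and 1 in Tcf7), erythroid genes 1 of 20 (Ldb1) and cell cycle genes 1 of 19 (near Ccnd2). Megakaryocyte and platelet genes had 0 of 15, granulocyte and monocyte genes 0 of 9, and CTCF and cohesin genes 0 of 18. These counts are small, and no test was run on them. The gene lists were chosen with earlier results of these data known, and several sites of 1 gene are not separate cases.

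Mecom encodes EVI1 and MDS1-EVI1, zinc finger regulators that stem cells need. Its first site, in an intron 5467 bp from a start at chr3:30514738-30515661, had a −log10 p of 12.6 and 38.3 in LSK, 13.6 in CMP, 17.9 in GMP and 27.4 in CFUMk, and no call in MEP or CFUE. The second, 1209 bp from a start at chr3:30507882-30509166, had 6.19 and 30.7 in LSK, 22.4 in CMP, 59.9 in GMP, 6.36 in MEP and 55.5 in CFUMk. The third, at chr3:30014959-30015877, had 8.33 and 10.2 in LSK, 8.32 in CMP, 9.65 in GMP and 31.7 in CFUMk. None of the 3 was called in any G1E-ER4+E2 library. Apart from LSK and CFUMk, where the choice required a call, the Mecom sites were therefore called in CMP and GMP and were weak or uncalled in MEP.

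Kit encodes the receptor for stem cell factor, the surface marker by which LSK and CFUMk were sorted in and iMk sorted out. Its site at chr5:75575331-75576258, 840 bp from the start, had a −log10 p of 8.17 and 15.0 in LSK, 22.2 in CMP, 18.7 in GMP, 5.16 in MEP and 21.7 in CFUMk, and was called in 2 of 14 line libraries. Mycn encodes N-Myc, a growth regulator of stem cells. The site in its intron, at chr12:12938669-12939587, had 11.5 and 28.4 in LSK, 14.5 in CMP, 9.86 in GMP, 8.93 in MEP and 26.2 in CFUMk. The site 670 bp from its start, at chr12:12942186-12942981, had 8.32 and 9.83 in LSK, 16.2 in CMP, 9.92 in GMP and 25.8 in CFUMk. Hlf encodes a transcription factor of stem cells. Its intron site, at chr11:90380910-90381697, had 10.3 and 11.6 in LSK, 8.88 in CMP, 19.3 in GMP and 14.1 in CFUMk. It was the only listed-gene site without a CTCF match, with a best score of 1.54 bits. Neither the Mycn sites nor the Hlf site was called in any line library.

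Of the lymphoid genes, Tcf7, which encodes TCF-1, a factor of T cell development, had the strongest site, in an intron at chr11:52261741-52262572. Its −log10 p was 13.2 and 33.7 in LSK, 29.5 in CMP, 14.1 in GMP, 8.91 in MEP and 43.1 in CFUMk. The intron sites of Pax5, the B cell regulator, had 7.04 and 24.3 in LSK at chr4:44577133-44577907 and 5.40 and 10.9 at chr4:44557584-44558400. Each was called in 1 of the 4 progenitor lists, GMP and MEP respectively. The site near Ccnd2, a cyclin gene, lies 265 bp from a start of Gm43126 at chr6:127122345-127123057 and had 10.7 and 13.8 in LSK, 9.55 in CMP, 41.9 in GMP, 11.8 in MEP and 50.4 in CFUMk.

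**Figure D5:**
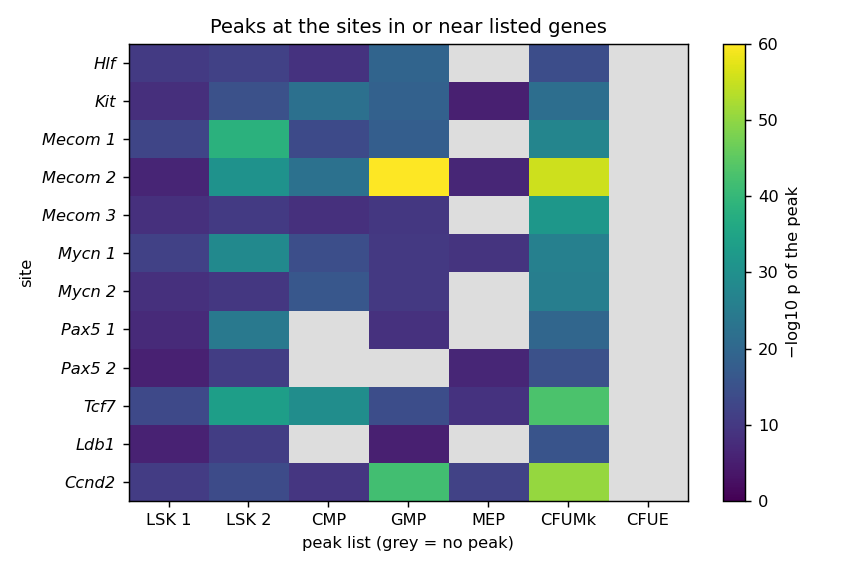
The −log10 p of the CTCF peak (colour, 0 to 60) in the LSK, CMP, GMP, MEP, CFUMk and CFUE lists (columns) at the 12 sites in or near listed genes (rows, with several sites of a gene numbered by LSK rank), with grey where no peak was called. The CFUE column is grey throughout, and the brightest cells are GMP (59.9) and CFUMk (55.5) at the second Mecom site.

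Across chromosomes the share of the 17657 sites that were uncalled in mature cells ran from 5.51% on chromosome 11 to 16.7% on chromosome 14. On chromosome X 28 of 189 sites (14.8%) were uncalled. The 5 X sites with the highest LSK rank lay near 4930550L24Rik, in Fgf13, near Agtr2, in an exon of Sytl4 and near Pja1. Part of the value of chromosome 14 came from its first 10 Mb, where 33 of 54 sites were uncalled, and outside it the chromosome had 98 of 729 (13.4%). Of those 33 sites, 27 shared a run of 50 bases near their best match with another of the 17657 sites, so short reads there may match more than 1 place. The nearest of the 17657 sites was a median of 39518 bp from the 1657 sites, against 21510 bp for iMk sites and 14485 bp for retained sites. This nearest site was itself uncalled in mature cells for 321 of the 1657 (19.4%), against 8.23% for iMk sites and 5.03% for retained sites. The stretch of gene copies on chromosome 14 is included in these counts.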

How the data were processed

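ChIP-seq peak lists for CTCF came from sorted bone marrow cells and G1E-ER4+E2 cells, and those for TAL1 from the line. Each sample's group was taken from its labels. Per the study's methods, the authors mapped reads to mm10 (GRCm38) with Bowtie (version 1.0.0 in the submitters' processing notes) and called peaks for each library with MACS. The deposited lists give each peak's fold enrichment, a ratio over background. They also give the −log10 of its p-value, as deposited never below 5, and an FDR, which the authors gave as a fraction. Calls were not filtered by FDR. An FDR of at most 0.05 was reached by 28.2% of the CFUE peaks and 60.2% and 51.0% of the ERY peaks. In the line's Pass lists few or no peaks reached it (at most 0.333% for TAL1), apart from a CTCF list with 52.2%. Depth is not in the lists, so strength was compared only as rank within a list. A list can call fewer sites for lack of depth alone, and the number of libraries and peaks limits the precision.

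Sites were merged and called at 1 bp of overlap (Python 3.11.15, numpy 2.4.6, pandas 2.3.3) and placed by their centre with GENCODE M21. Sequences were read from GRCm38 (RefSeq) with pysam 0.24.0. The CTCF matrix was learned de novo in 15 rounds from the middle 200 bp of 2000 sites called in all 14 Pass libraries of the line, and its score is a log2 ratio in bits. Libraries were compared by exact sign-flip permutation tests (scipy 1.17.1 for intervals), with Benjamini-Hochberg adjustment over 2 tests. The steps were checked on simulated data. Alternatives were other overlaps, thresholds, list lengths, libraries, scan settings and promoter distances. For 1 library titled TAL1 the antibody label reads CTCF, and it was kept by its title. Named were the 15 sites of highest LSK rank, every site within 10 kb of a gene of 7 lists of 20 genes (Znf143 was not found as a mouse symbol), and the 5 highest in LSK in all 4 progenitor lists, in none, in every line library, at coding promoters (1 of which is not reported here) and on X. The sites and lists were chosen with earlier results of these data known. Low pass and Fail lists of the line, other samples and input were not used here.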

Additional observations from a re-analysis of the deposited data

How the results depend on the processing

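The number of sites was 1657 as reported. It was 1036 with a −log10 p of at least 10 in every list, 334 with that minimum in LSK and CFUMk only, 193 with lists of equal length, and 297 with a false discovery rate of at most 0.05 in LSK list 2, an alternative chosen after seeing the data. Without each LSK, ERY or iMk library in turn it ran from 1669 to 5206, the highest without LSK list 1. The shares called in CMP, GMP, MEP and CFUE were 30.0%, 53.3%, 15.3% and 0.772% with the minimum of 10 in every list. They were 64.3%, 65.8%, 65.3% and 11.9% with equal lengths of all lists, 18.7%, 15.7%, 14.2% and 2.29% with only CMP, GMP and MEP cut to the length of CFUE, which was chosen after seeing the data, and 70.7%, 77.8%, 43.8% and 3.37% with the false discovery rate. Without a library they ran from 28.4% to 47.1% in CMP, 46.9% to 66.2% in GMP, 13.4% to 32.0% in MEP and 2.13% to 3.47% in CFUE. A CTCF match was present in 73.9% at the stricter p and in 85.8% in the middle 200 bp, and 18.1% lay within 2500 bp of a transcript start. The cause of these changes was not tested, apart from the smaller or larger sets that the settings themselves make. The differences in G1E-ER4+E2 kept their direction and side of the threshold in all 16 alternatives for CTCF (-77.3 to -38.4 points) and all 6 for TAL1 (-2.93 to -0.122 points). The 6 include the strongest group of LSK rank, where none of the 21 sites had a TAL1 peak, so a higher share could not be seen. They leave out the TAL1 comparison with iMk sites within groups of LSK rank, which went the other way in the third group (0.371 points). No paired analysis was possible because the sample labels give no replicate numbers shared between groups. The sets of sites were instead compared within each library.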

Other observations

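Some groups of sites uncalled in mature cells were noticed after the values were seen and carry no test. The T cell receptor alpha and delta locus, a span of 1796 kb with 200 annotated genes and gene segments on chromosome 14, held 15 of these sites among its 72 sites called in LSK and CFUMk (20.8%). GMP called 12 of the 15, CMP 8, MEP 3 and CFUE none, and none was called in 7 or more of the 14 G1E-ER4+E2 libraries. Over all 1657 sites GMP called 59.1%, CMP 41.8%, MEP 26.0% and CFUE 2.29%, and 16.2% were called in at least 7 line libraries. Of the 15, 9 shared a run of 50 bases with another site, so their reads may be placed among copies. At the immunoglobulin kappa locus 4 of 7 sites were uncalled in mature cells, at the heavy chain locus 0 of 13. The T cell receptor beta locus had 1 of 7 and the gamma locus 1 of 1.

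Successive sites, with no other site called in LSK and CFUMk between them, were uncalled in runs. Of the 1657 sites 1114 stood alone, and 1 run of 17 covered the gene copies around Gm3383 on chromosome 14. The next longest run, of 7 sites over 1547 kb on chromosome 3, ended with the 3 Mecom sites. The other 4 of that run lay near Gm1527 and Egfem1 and 184625 bp from the nearest Mecom start. The first, near Gm1527, was called in 12 of the 14 line libraries with a score of 13.01 bits, and none of the 3 Mecom sites was called in any. Among the 5 runs of 5 sites, 1 lay at Kcnma1, a potassium channel gene, and 1 at Col22a1, a collagen gene, where 6 of 8 and 5 of 6 sites nearest to the gene were uncalled in mature cells.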
